A study of Mus musculus with 6 samples.

Results

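The 34 apoptosis genes described here are caspases, relatives of BCL2, death receptors with their adaptors, the apoptosome and IAP genes, and Trp53. They were chosen by name, and every probe of the array that carries 1 of these names was used, which gave 64 probes among the 27827 gene names of the array files. Of these probes 58, for 33 genes, passed the filter on dim probes (3 or more of 6 arrays well above background) and were tested. The gene without such a probe was Hrk, a BH3-only gene, whose single probe was above background on 0 of 6 arrays. Another 5 probes were not tested either, of Apaf1 (2 probes), Bcl2l11, Bmf and Xiap, genes that were measured by other probes.

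Apoptosis is the orderly death of a cell, carried out by proteases called caspases. In the mitochondrial route, BH3-only proteins relieve the restraint that BCL2 and its protective relatives place on the pore-forming proteins BAX and BAK1. Cytochrome c then leaves the mitochondria and assembles APAF1 and caspase 9 into the apoptosome, while IAP proteins hold caspases back and DIABLO releases them. In the receptor route, ligand-bound receptors such as FAS recruit FADD and caspase 8, with CFLAR as the brake and RIPK1 as a switch between survival and death. A separate group of inflammatory caspases is known for cutting cytokines and gasdermin, and beta cell death by several of these routes is studied as a step towards diabetes.

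The samples are pancreatic islets of male mice from a pair of obese strains. The strain called NZO here is NZO/HiBomDife (New Zealand Obese), labelled as prone to diabetes. The strain called B6-ob/ob here is C57BL/6.V-Lepob/ob, whose leptin gene is defective, and its label is resistant. Both strains ate a fatty diet free of carbohydrate up to 18 weeks of age, then food that contained carbohydrate, and islets were taken 48 h later. Each strain has 3 samples (NZO replicates 10, 11 and 12, B6-ob/ob replicates 4, 5 and 6) on 1 array each, and no islets from before the change of diet were analysed here. No label tells if islets of several animals were pooled for a sample. The p-values therefore measure only how far these samples spread, and that spread may be technical.

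Of 41174 probes, 23621 to 24710 were above background on an array and no spot was saturated. With 3 arrays a strain, precision is limited by their number. Every level below is the log2 of a probe's intensity minus the 75th percentile of its array, and every difference is that of NZO less B6-ob/ob, with strains as the scanner files are labelled. This direction opposes that of the authors' deposited value table, in which each of the 6 columns follows an array of the other strain (Pearson's r across probes 0.966 to 0.984, against -0.778 to -0.523 with its own array). Ifi202b, a gene known to be silent in mice of B6 descent, was above background in 3 of 3 NZO and 0 of 3 B6-ob/ob scanner files. Levels of different probes cannot be set against each other on an array, so only the strains are compared. Probes of 1 gene are numbered by their position on mm9 (lowest coordinate first).

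At the threshold of an adjusted p of 0.05 (limma, Benjamini-Hochberg over 24628 probes), 12 of the 58 probes differed between the strains, 10 higher and 2 lower in NZO. That is 20.7% of the probes of these genes, against 21.8% of all probes tested, so the share called among apoptosis genes was near that of the array as a whole. Higher calls make up 11.5% and lower calls 10.3% of all probes. The 12 probes belong to 11 genes. Casp12, Casp4, Birc3, Bcl2, Bcl2l11, Pmaip1, Apaf1, Mcl1 and Ripk1 were higher in NZO, and Trp53 and Xiap were lower. Both Bcl2l11 probes were called. Of the 17 genes with several tested probes, 6 had some probes called and others not, and 10 had none called. The median log2 difference over the 58 probes was 0.10, against -0.06 over all probes. At 21 of the 58 probes (36.2%) the strains did not overlap, against 41% of all probes. NZO lay above at 14 and below at 7 of these, against 18.6% and 22.4% of all probes. The count of 12 fell to 7 without NZO 10, to 5 without NZO 11 and to 6 without B6-ob/ob 5. In the same order the count over all probes fell from 5376 to 3476, 3191 and 2814. With any other array left out the count for these genes was 10 to 13. It was 6 with the slide as a fixed block, where 14.8% of all probes were called.

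**Figure D1:**
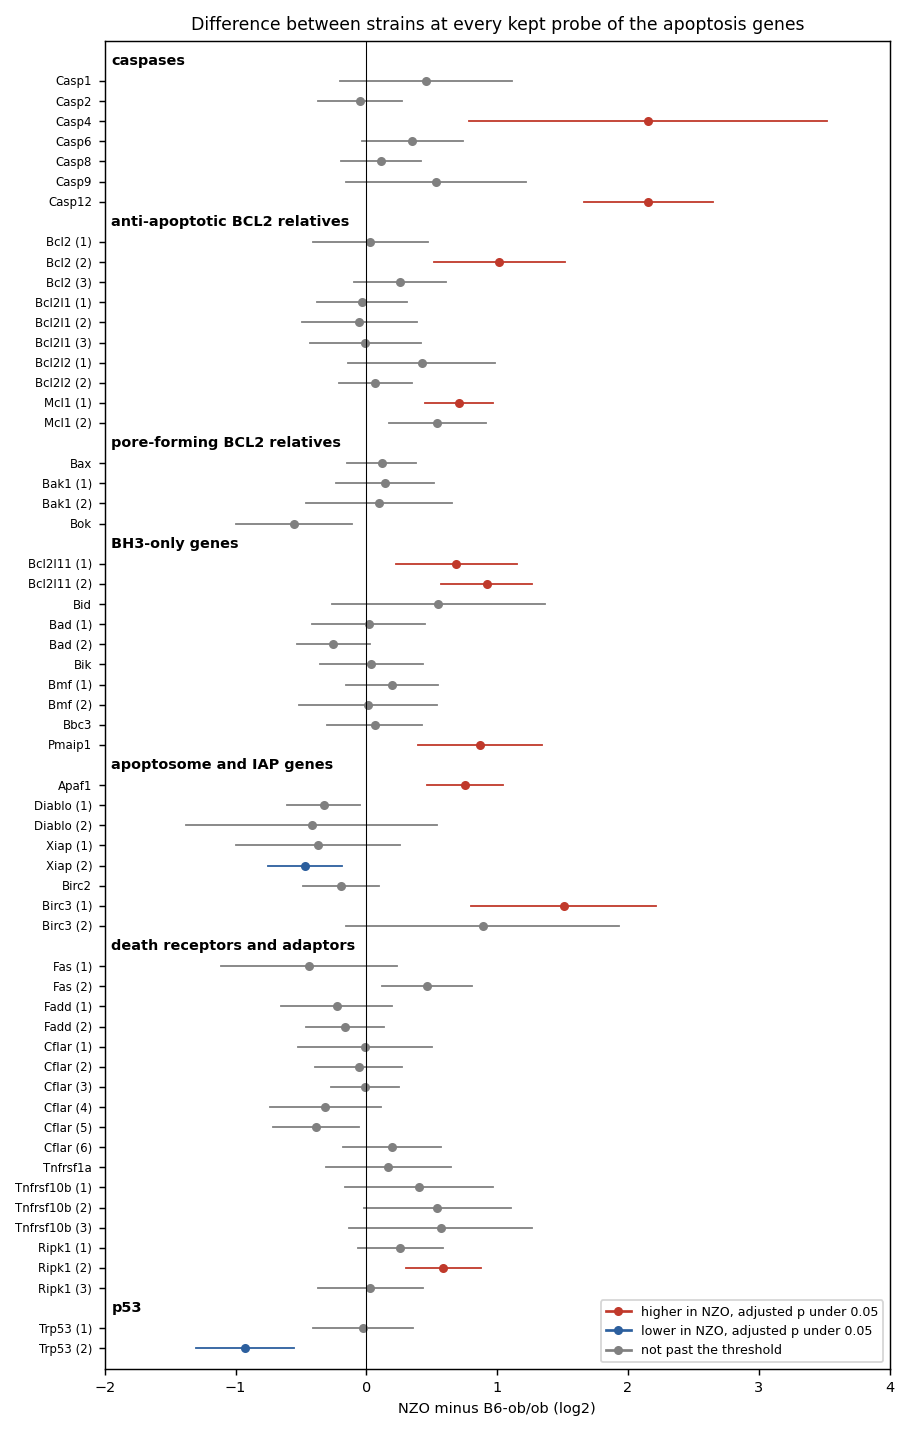
Log2 difference, NZO minus B6-ob/ob, at each of the 58 tested probes of the apoptosis genes, grouped by role, with 95% confidence intervals from limma (3 arrays per strain). Numbers in brackets count probes of 1 gene by genome position. Casp4 and Casp12 stand farthest to the right. The only probe called among death receptors and adaptors is the second of the kinase Ripk1, and no pore-forming probe was called.

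Among the caspases, the cutting enzymes themselves, the inflammatory members Casp12 and Casp4 were 4.45-fold higher in NZO, while the other caspases among the 34 genes were not called. Of 7 probes for 7 genes, 2 were higher and 0 lower in NZO by limma, against 11.5% and 10.3% of all probes. At an unadjusted p under 0.05 also 0 were lower, and the median log2 difference was 0.46. The log2 levels of Casp12, a caspase of the endoplasmic reticulum in rodents, were -1.36, -1.09 and -1.09 on NZO arrays 10, 11 and 12, and -3.06, -3.73 and -3.21 on B6-ob/ob arrays 4, 5 and 6. All 3 NZO arrays lay far above all 3 B6-ob/ob arrays. The log2 difference was 2.15 (SE 0.20, 95% interval 1.66 to 2.65, adjusted p 0.00117). It was called in all 20 alternative analyses, with an adjusted p of 0.0152 with the slide as a fixed block.

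Casp4, the mouse gene also known as Casp11, encodes the caspase that senses bacterial lipopolysaccharide inside the cell. Its log2 levels were 1.60, 2.18 and 1.04 on NZO arrays 10, 11 and 12, and 0.67, -0.96 and -1.35 on B6-ob/ob arrays 4, 5 and 6. The strains did not overlap, but B6-ob/ob 4 lay much nearer to NZO than the other B6-ob/ob arrays did. The log2 difference was 2.15 (SE 0.57, 95% interval 0.78 to 3.52, adjusted p 0.041). The size was 0.93 within slide 2 and 3.34 within slide 3. The call was lost with the slide as a fixed block (adjusted p 0.072), with no filter on dim probes (adjusted p 0.0685), and on leaving out NZO 10, 11 or 12 or B6-ob/ob 5 or 6 in turn, where the adjusted p ran from 0.0604 to 0.137.

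The other caspases differed less between the strains. Casp1, which activates interleukin 1 beta, had a log2 difference of 0.46 (95% interval -0.20 to 1.12, adjusted p 0.292). Its log2 levels were -2.30, -2.83 and -3.02 in NZO and -3.37, -3.45 and -2.71 in B6-ob/ob, so the strains overlapped. Casp9, the apoptosome's caspase, had a log2 difference of 0.53 (95% interval -0.16 to 1.22, adjusted p 0.245). The 3 B6-ob/ob arrays of Casp9 were spread widely, with log2 levels of -0.21, 0.28 and 0.87. Casp6, an executioner, had log2 levels of 1.92, 1.75 and 1.996 in NZO and 1.26, 1.64 and 1.71 in B6-ob/ob, which did not overlap, and a log2 difference of 0.35 (adjusted p 0.178). Casp8, the receptor-route initiator, and Casp2, an initiator linked to DNA damage, had log2 differences of 0.11 (95% interval -0.20 to 0.42) and -0.05 (95% interval -0.37 to 0.27), which bound any change at those probes to well under that of Casp12.

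Casp1, Casp4 and Casp12 are neighbours. On mm9 their probes lie on the plus strand at chr9:5306226-5306728, chr9:5336645-5336704 and chr9:5372258-5372317. The first 30 bases of the Casp4 and Casp12 probes are shown because these carry the greatest differences of the set.
Casp4 probe: tatgaattcaagaccagcctaagcaacaca
Casp12 probe: actgtttgtctctggcatacatggttttca
For the same genes the 250 bases before the transcription start are printed from RefSeq (GRCm38.p6), at chr9:5308599-5308848 and chr9:5345226-5345475 on the plus strand. Capitals mark matches on either strand to GGGNNTTTCC, an NF-kB type pattern, or to TTCNNNGAA, the pattern of a gamma-activated site bound by STAT factors.
Casp4: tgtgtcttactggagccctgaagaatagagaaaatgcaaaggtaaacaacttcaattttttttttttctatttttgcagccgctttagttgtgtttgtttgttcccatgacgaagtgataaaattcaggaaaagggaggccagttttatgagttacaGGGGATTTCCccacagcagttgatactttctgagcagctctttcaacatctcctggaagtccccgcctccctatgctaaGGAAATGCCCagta
Casp12: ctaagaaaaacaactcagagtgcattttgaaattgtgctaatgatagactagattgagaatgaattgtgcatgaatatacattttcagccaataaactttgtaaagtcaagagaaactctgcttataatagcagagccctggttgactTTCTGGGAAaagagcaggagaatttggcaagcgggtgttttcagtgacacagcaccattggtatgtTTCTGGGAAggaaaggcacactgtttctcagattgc
The window of Casp4 held 2 matches to GGGNNTTTCC, starting 93 and 14 bases before the start, and that of Casp12 held 2 to TTCNNNGAA, 102 and 36 bases before it. Windows of this length held GGGNNTTTCC in 1.41% and TTCNNNGAA in 7.02% of 32851 promoters. Among the 31 apoptosis genes with a window, GGGNNTTTCC was also found for Bbc3, Bcl2l1 and Mcl1, and TTCNNNGAA for Fas, Ripk1 and Tnfrsf1a. In all 14 patterns were searched, the 2 shown were picked after the matches were seen, and a match is a description of letters and not a binding site.

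Of the protective BCL2 relatives, which hold the pore-forming proteins in check, Mcl1 was 1.64-fold higher in NZO. The group had 10 probes for 4 genes, of which 2 were higher and 0 lower by limma, against 11.5% and 10.3% of all probes. At an unadjusted p under 0.05 also 0 were lower, and the median log2 difference was 0.16. The log2 levels of the first Mcl1 probe were 2.44, 2.48 and 2.36 on NZO arrays 10, 11 and 12, and 1.78, 1.68 and 1.69 on B6-ob/ob arrays 4, 5 and 6. Within each strain these arrays lay close together, and the strains lay well apart. The log2 difference was 0.71 (SE 0.11, 95% interval 0.45 to 0.97, adjusted p 0.006), and it was called in all 18 alternatives run for it. The second Mcl1 probe, also without overlap of the strains, had a log2 difference of 0.54 (SE 0.15, adjusted p 0.0522) and did not pass. It is brighter than the first, so it stood for Mcl1 in the alternative with the brightest probe per gene, where it was not called.

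Bcl2 itself was called at 1 of 3 probes. That second probe, from the cDNA clone AK077913, had log2 levels of -3.99, -3.98 and -3.95 on the NZO arrays and -4.63, -5.41 and -4.92 on the B6-ob/ob arrays. It was dim, above background on 5 of 6 arrays. Its log2 difference was 1.02 (SE 0.21, adjusted p 0.0171), while the other 2 probes differed by 0.03 (95% interval -0.41 to 0.47) and 0.25 (95% interval -0.10 to 0.61). Its call was lost with the slide as a fixed block (adjusted p 0.0699), with normexp background correction under either normalization (log2 difference 0.36 and adjusted p 0.1 with the 75th percentile), in the mean of probes per gene, and without NZO 10, 11 or 12 (adjusted p 0.0535 to 0.0617). Bcl2l1, which encodes BCL-XL, lay close to 0 at all 3 probes, with log2 differences of -0.03, -0.05 and -0.01 and 95% intervals within -0.49 to 0.42. Bcl2l2, which encodes BCL-W, had log2 differences of 0.42 (adjusted p 0.254) and 0.07 (adjusted p 0.729).

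None of the pore-forming relatives, which open the mitochondrial outer membrane, passed the threshold. By limma 0 of their 4 probes were called, where 21.8% of all probes were. At an unadjusted p under 0.05, 1 was lower (Bok), and the median log2 difference was 0.11. Bax had log2 levels of 1.89, 1.82 and 1.87 in NZO and 1.64, 1.83 and 1.74 in B6-ob/ob, and a log2 difference of 0.12 (95% interval -0.15 to 0.38). Its highest B6-ob/ob array lay within the NZO range. The log2 differences of Bak1 were 0.14 (95% interval -0.23 to 0.52) and 0.10 (95% interval -0.47 to 0.66). Bok, whose product can also form pores, had log2 levels of 1.32, 1.39 and 1.42 in NZO and 2.26, 1.94 and 1.59 in B6-ob/ob. All 3 NZO arrays lay below the B6-ob/ob arrays, which were more spread, and the log2 difference of -0.56 (95% interval -0.999 to -0.11) had an adjusted p of 0.0802.

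Of the BH3-only genes, whose products trigger the mitochondrial route, Bcl2l11 and Pmaip1 were higher in NZO. The group had 10 tested probes for 7 genes, with 3 higher and 0 lower by limma, against 11.5% and 10.3% of all probes. At an unadjusted p under 0.05 also 0 were lower, and the median log2 difference was 0.13. Bcl2l11 encodes BIM, a strong activator of BAX. Its second probe had log2 levels of 1.33, 1.47 and 1.13 on NZO arrays 10, 11 and 12, and 0.24, 0.39 and 0.53 on B6-ob/ob arrays 4, 5 and 6. The strains were wholly separate there, by a log2 difference of 0.92 (SE 0.14, 95% interval 0.57 to 1.27, adjusted p 0.00674), which was called in all 19 alternatives run for it. The first probe was higher in NZO too, with log2 levels of -2.85, -2.85 and -3.43 in NZO and -3.78, -3.60 and -3.81 in B6-ob/ob and a log2 difference of 0.69 (SE 0.19, adjusted p 0.0485). NZO 12 lay nearest to B6-ob/ob at that probe, whose call was kept in 7 of 18 alternatives and lost without NZO 10 or 11 or any B6-ob/ob array (adjusted p 0.0989 to 0.153).

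Pmaip1, which encodes NOXA, a BH3-only protein that binds MCL1, had log2 levels of -0.53, -0.84 and -1.05 in NZO and -1.98, -1.55 and -1.49 in B6-ob/ob. The strains did not overlap. Its log2 difference was 0.87 (SE 0.20, 95% interval 0.39 to 1.34, adjusted p 0.0251). That call was lost with the slide as a fixed block (adjusted p 0.0529) and without NZO 10, NZO 11 or B6-ob/ob 5 (adjusted p 0.0708 to 0.0784). The other BH3-only genes were not called. Bbc3, which encodes PUMA, a p53 target, had log2 levels of 2.998, 2.74 and 2.88 in NZO and 2.78, 2.61 and 3.03 in B6-ob/ob and a log2 difference of 0.06 (95% interval -0.30 to 0.43). Bid, which links the receptor route to mitochondria, had log2 levels of -2.05, -1.86 and -1.80 in NZO and -3.17, -2.37 and -1.80 in B6-ob/ob. Its B6-ob/ob arrays spanned more than the strains' difference of 0.55 (adjusted p 0.306), and stretches of 16 bases of its probe occur in the promoter windows of 42 other genes. Bik and Bmf had log2 differences of 0.04, and of 0.19 and 0.01. Bad, inhibited by survival kinases, had 0.02 at its first probe and -0.25 at the second, which the files place on the opposite strand from the first.

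**Figure D2:**
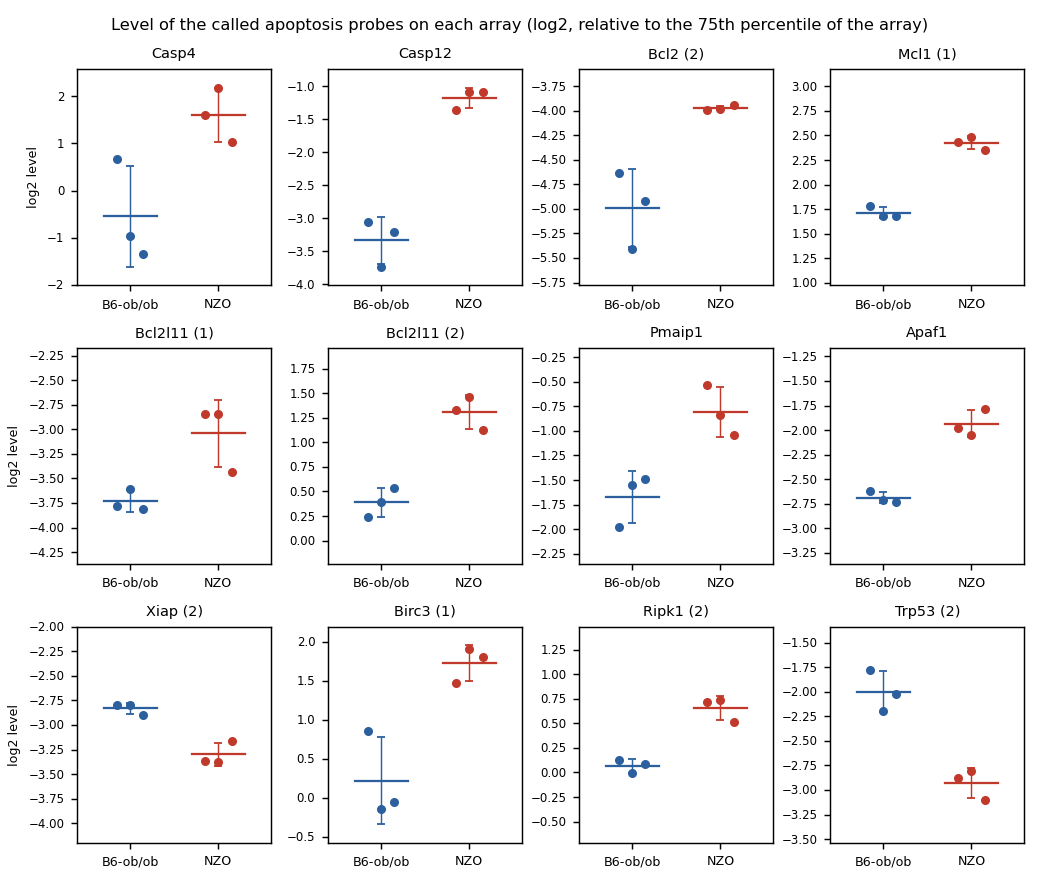
Log2 level (relative to the array's 75th percentile) of the 12 called probes on each of the 3 B6-ob/ob (blue) and 3 NZO (red) arrays, with the mean (line) and SD (bar) of each strain. Panels have their own axes, and points run in replicate order from left to right. In every panel the strains do not overlap. B6-ob/ob 4 is the B6-ob/ob array nearest to NZO in the Casp4, Birc3, Casp12, Bcl2, Mcl1, Apaf1 and Ripk1 panels, by the widest gaps in those of Casp4 and Birc3.

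The apoptosome and IAP group split in direction. Of its 8 tested probes for 5 genes, 2 were higher and 1 lower in NZO, against 11.5% and 10.3% of all probes. The median log2 difference was -0.26. Apaf1, the scaffold of the apoptosome, had log2 levels of -1.98, -2.05 and -1.78 on NZO arrays 10, 11 and 12, and -2.62, -2.71 and -2.73 on B6-ob/ob arrays 4, 5 and 6. The arrays of each strain lay close together and the strains were apart, with a log2 difference of 0.75 (SE 0.12, 95% interval 0.46 to 1.04, adjusted p 0.00742), called in all 19 alternatives run for it. Its other 2 probes, which were not tested, were above background on 1 and 2 of 6 arrays.

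Birc3 encodes cIAP2, a ubiquitin ligase of the TNF receptor complex and a known NF-kB target. The log2 levels of its first probe were 1.47, 1.91 and 1.80 in NZO and 0.86, -0.15 and -0.06 in B6-ob/ob. B6-ob/ob 4 lay between NZO and the other B6-ob/ob arrays, as it did for Casp4. The log2 difference was 1.51 (SE 0.29, 95% interval 0.80 to 2.22, adjusted p 0.0145), and it was 0.62 within slide 2 and 2.01 within slide 3. The call was lost with the slide as a fixed block (adjusted p 0.0685) and without NZO 11 (adjusted p 0.0583) or B6-ob/ob 5 (adjusted p 0.0573). The second probe, dimmer and with NZO 10 among the B6-ob/ob arrays, differed by 0.89 (SE 0.43, adjusted p 0.202). Birc2, which encodes the related cIAP1, had a log2 difference of -0.19 (95% interval -0.48 to 0.09), with its NZO arrays below the B6-ob/ob arrays.

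Xiap, the IAP that inhibits caspases directly, was lower in NZO at 1 of 2 tested probes. Its second probe had log2 levels of -3.37, -3.37 and -3.16 in NZO and -2.80, -2.80 and -2.90 in B6-ob/ob. The strains did not overlap, and the log2 difference was -0.47 (SE 0.12, 95% interval -0.75 to -0.19, adjusted p 0.0346). The call was kept in 7 of 19 alternatives. It was lost with the slide as a fixed block (adjusted p 0.0738), with normexp background correction under either normalization (log2 difference -0.10 and adjusted p 0.682 with the 75th percentile) and without NZO 10 or 11 or any B6-ob/ob array (adjusted p 0.0509 to 0.134). The first probe, where the strains overlapped, differed by -0.37 (adjusted p 0.367). Diablo, whose product relieves caspases of IAP proteins, had log2 levels of 2.20, 2.22 and 2.20 in NZO and 2.55, 2.65 and 2.40 in B6-ob/ob at its first probe. The NZO arrays lay below without overlap, but the log2 difference of -0.33 (adjusted p 0.0952) did not pass, nor did that of its second probe (-0.42, adjusted p 0.512).

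Death receptors and their adaptors form the group with the most probes. Of 17 probes for 6 genes, 1 was higher and 0 lower in NZO by limma, against 11.5% and 10.3% of all probes. At an unadjusted p under 0.05 these counts were 2 and 1. The median log2 difference was 0.03, and the group was not tested against the shares of all probes. The called probe was the second of Ripk1, the kinase that decides between NF-kB signalling and death below TNF receptors. Its log2 levels were 0.72, 0.73 and 0.52 in NZO and 0.13, -0.01 and 0.08 in B6-ob/ob. The strains were separate by a log2 difference of 0.59 (SE 0.12, adjusted p 0.0165), which was lost with the slide as a fixed block (adjusted p 0.0508), in the mean of probes per gene (0.29, adjusted p 0.0972) and without NZO 10, NZO 11 or B6-ob/ob 5 (adjusted p 0.0668 to 0.0831). The other Ripk1 probes differed by 0.26 (95% interval -0.07 to 0.58) and 0.03 (95% interval -0.37 to 0.43), and the 3 probes lie within the same stretch, chr13:34124490-34126320 on mm9.

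Fas, the receptor of Fas ligand, had log2 levels of 0.11, 0.21 and 0.24 in NZO and -0.04, -0.31 and -0.46 in B6-ob/ob at its brighter probe. All NZO arrays lay above, yet the log2 difference of 0.46 (95% interval 0.12 to 0.81) had an adjusted p of 0.0668. A dim probe from another transcript, above background on 4 of 6 arrays, differed by -0.44 (adjusted p 0.322). Tnfrsf10b, the mouse TRAIL receptor, had log2 differences of 0.40, 0.54 and 0.57 at its 3 probes, each with overlap of the strains and adjusted p from 0.152 to 0.283. At each of them B6-ob/ob 4 lay above B6-ob/ob 5 and 6 and within the NZO range. Tnfrsf1a, a TNF receptor, had log2 levels of 2.60, 2.53 and 2.32 in NZO and 2.66, 1.98 and 2.30 in B6-ob/ob and a log2 difference of 0.17 (95% interval -0.31 to 0.64). The adaptor Fadd differed by -0.23 and -0.16. The 6 probes of Cflar, the brake on caspase 8, had log2 differences from -0.39 to 0.19, with adjusted p from 0.0955 to 0.977. The lowest pair of Cflar values came from probes that share 45 bases and so do not count apart.

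Trp53, the gene of the p53 transcription factor, which induces several BH3-only genes, gave different answers at its 2 probes. The first probe had log2 levels of -0.34, -0.14 and -0.32 in NZO and 0.04, -0.39 and -0.37 in B6-ob/ob, and a log2 difference of -0.03 (95% interval -0.41 to 0.35). The second probe, printed on 10 spots, had log2 levels of -2.88, -2.81 and -3.10 in NZO and -1.78, -2.20 and -2.02 in B6-ob/ob. All 3 NZO arrays lay below B6-ob/ob there, by a log2 difference of -0.93 (SE 0.16, 95% interval -1.30 to -0.56, adjusted p 0.00842), although the strains overlapped at the first probe. The call held with the slide as a fixed block and without each array in turn, and was lost with normexp background correction and the 75th percentile (log2 difference -0.42, adjusted p 0.0639), though not with normexp and quantile normalization (-0.51, adjusted p 0.015), and in the mean of both probes (-0.48, adjusted p 0.0691). The difference between the probes was not tested. Both are assigned to the transcript NM_011640, on the plus strand of mm9, and their first 30 bases are shown because one probe was called and the other was not.
Trp53 probe 1, chr11:69393959-69394017: gcattcaggccctcatcctcctccttccca
Trp53 probe 2, chr11:69403134-69403193: accgccgtacagaagaagaaaatttccgca

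Other genes of the pathway, not among the 34, were called at 17 of 89 tested probes, 10 higher and 7 lower in NZO. Of all probes 21.8% were called, 11.5% higher and 10.3% lower. The median log2 difference of these genes was -0.03. The higher genes with the greatest differences were Dapk2, a death-associated kinase, and Tnfrsf1b, the other TNF receptor. Dapk2 had log2 levels of -0.89, -1.15 and -0.78 in NZO and -2.54, -3.40 and -2.95 in B6-ob/ob and a log2 difference of 2.02 (SE 0.24, adjusted p 0.0025). The strains were far apart. Tnfrsf1b differed by 1.96 (SE 0.40, adjusted p 0.0177) at 1 probe and by -0.23 at the other. That call was lost in the mean of both probes and without NZO 10, NZO 11 or B6-ob/ob 5 (highest adjusted p 0.129). Tnfrsf25, a death receptor, Bag3, a co-chaperone that counters apoptosis, and Ripk3, the kinase of necroptosis, had log2 differences of 1.31, 1.29 and 1.20. With the slide as a fixed block the adjusted p of Tnfrsf25 was 0.128 and that of Ripk3 was 0.0777, and both calls were lost without any one of NZO 10, 11 and 12 or B6-ob/ob 5, that of Tnfrsf25 also without B6-ob/ob 4 and that of Ripk3 without B6-ob/ob 6 (highest adjusted p 0.158 and 0.103).

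Among the genes lower in NZO were Cyld, a deubiquitinase of the TNF receptor complex (-1.18 at 1 of 3 probes), Rock1, a kinase that caspases cut (-1.13 and -1.06 at 2 of 3 probes), Stk4, another kinase cut by caspases (-0.56 and -0.61 at 2 of 4 probes), and Dffa, the inhibitor of the apoptotic nuclease (-0.48 at 1 of 3 probes). The calls of Stk4 and Dffa were lost with the slide as a fixed block, with normexp background correction and the 75th percentile, and without NZO 10 or B6-ob/ob 5. The Dffa call and that of the Stk4 probe at -0.56 were also lost without NZO 11, NZO 12 or B6-ob/ob 6. The calls of Cyld and Rock1 were lost in none of the alternatives run for those probes. The brightest probe per gene was not among these, because each gene has a brighter probe, which was not called there. In the main analysis the brighter Rock1 probe differed by -0.23 (adjusted p 0.214 by limma). The brighter Cyld probe was not called either, and its sign changed in 5 of 20 alternatives.

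Of the genes known to be induced by p53, 11 of 37 tested probes were called, 9 higher and 2 lower in NZO. The shares of all probes were 21.8% called, 11.5% higher and 10.3% lower, and the list was not tested against them. Its median log2 difference was 0.15. Cdkn1a, the cell cycle inhibitor most often read as a p53 target, had log2 levels of 2.24, 2.19 and 1.65 in NZO and 1.95, 1.55 and 0.91 in B6-ob/ob. The strains overlapped, with a log2 difference of 0.56 (95% interval -0.17 to 1.28, adjusted p 0.246). Mdm2, the ligase that degrades p53, differed by 0.13 and 0.33 (adjusted p 0.55 and 0.239). Higher in NZO were Sfn, the cell cycle inhibitor 14-3-3 sigma (1.88 and 1.72 at 2 probes, -0.03 at another), the stress cytokine Gdf15 (1.76), Tigar, a brake on glycolysis (1.60), Phlda3, a repressor of AKT (1.29), and the kinase Plk3 (1.13). The calls of Sfn, Gdf15 and Phlda3 were lost without NZO 10, NZO 11, B6-ob/ob 5 or B6-ob/ob 6, those of Sfn and Gdf15 also with the slide as a fixed block, and those of Gdf15 and of the Sfn probe at 1.88 also without NZO 12, with highest adjusted p of 0.132, 0.0761 and 0.106 over the alternatives. Plk3 and the Tigar probe at 1.60 were called in every alternative run. A brighter Tigar probe was not called, and passed in 3 of the 19 alternatives run for it. Sesn2, which restrains mTORC1 under stress, was lower at both probes, by log2 differences of -1.23 (adjusted p 0.00681) and -0.62 (adjusted p 0.0116). The second of these calls was lost with the slide as a fixed block and without NZO 11.

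The inflammasome genes, which act with Casp1 and Casp4, had 13 tested probes including those 2 members. Of the 11 others, 3 were higher and 2 lower in NZO, against 11.5% and 10.3% of all probes. With the slide as a fixed block 6 were higher and 2 lower, where 2061 of all 24628 probes were higher and 1584 lower. The median log2 difference of these 11 was 1.15. Only 8 of them were above background on all 6 arrays, and the filter can admit a probe through the NZO arrays alone, which may raise that median. Gsdmd, the pore former that Casp1 and Casp4 cut, had log2 levels of 0.43, 0.41 and 0.38 in NZO and -1.05, -0.91 and -0.62 in B6-ob/ob. The NZO arrays nearly coincided and lay far above the B6-ob/ob arrays, with a log2 difference of 1.27 (SE 0.14, adjusted p 0.00209). P2rx7, the ATP-gated channel upstream of the inflammasome, differed by 1.15 (SE 0.17, adjusted p 0.00539). The adaptor Pycard went the other way at both probes. At 1 of them the log2 levels were -1.35, -1.16 and -1.23 in NZO and -0.12, -0.28 and 0.32 in B6-ob/ob. The log2 differences were -1.22 (adjusted p 0.00531) and -0.95 (adjusted p 0.00558). The calls of Gsdmd, P2rx7 and Pycard held in every alternative run. Nlrc4, a sensor named here after its value was seen, was well above background on 3 NZO and 0 B6-ob/ob arrays, which gives at least 2.92-fold higher in NZO. That fold sets the mean log2 level of NZO against, on each B6-ob/ob array, the lowest signal of any probe above background. Nlrc4 passed the filter through its NZO arrays alone, so its call, 1 of the 3 higher, is no separate test of the strains. That call was lost without NZO 10 and with normexp background correction and quantile normalization (highest adjusted p 0.0657).

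**Figure D3:**
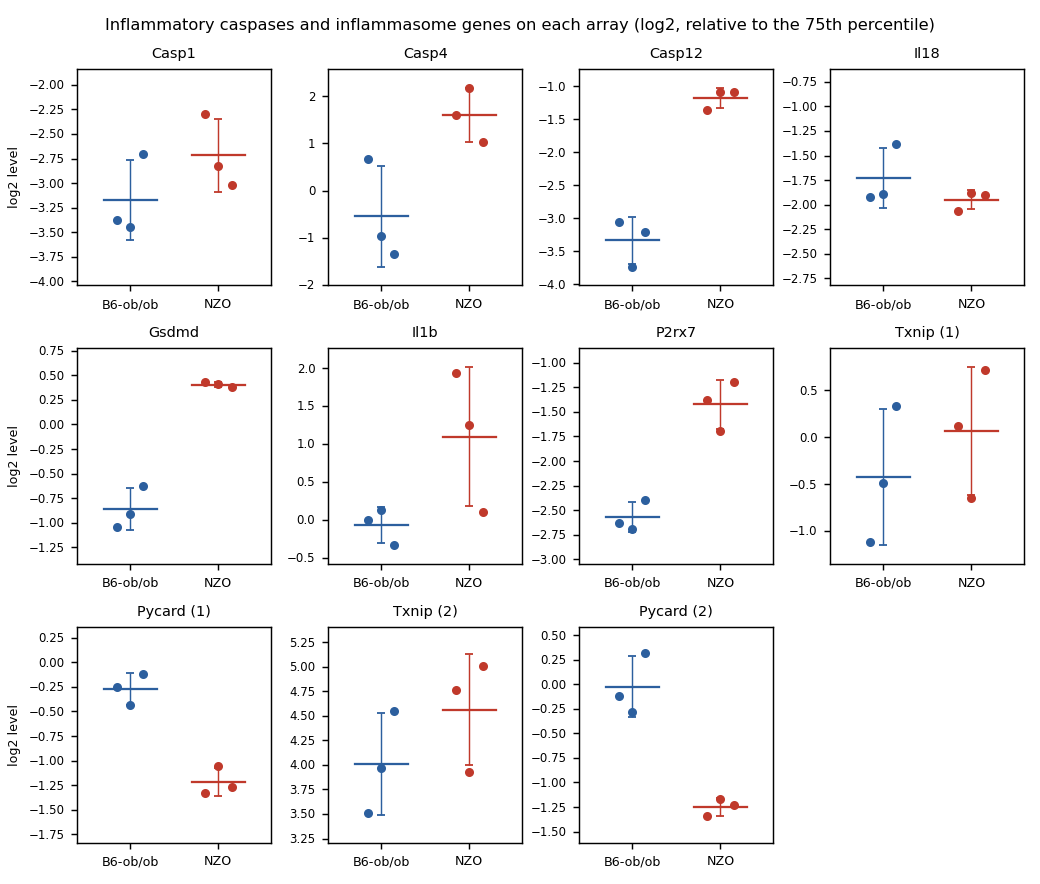
Log2 level (relative to the array's 75th percentile) of Casp1, Casp4, Casp12 and the inflammasome probes above background on all 6 arrays, on each B6-ob/ob (blue) and NZO (red) array, with mean (line) and SD (bar). Panels have their own axes. Gsdmd, P2rx7, Casp4 and Casp12 lie higher in NZO, Pycard lies lower at both probes, and Casp1, Il18, Il1b and Txnip overlap between the strains.

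The arrays came from 3 slides, and the slide equals the scan. Slide 2 held NZO 10 and B6-ob/ob 4, slide 3 held NZO 11 with B6-ob/ob 5 and 6, and slide 1 held NZO 12 alone, so slide 1 gives no within-slide value. All 12 called probes kept their direction within both slides. The log2 difference of Mcl1 was 0.65 within slide 2 and 0.80 within slide 3, and that of Apaf1 was 0.64 within slide 2 and 0.68 within slide 3. Those values were nearly equal, unlike those of Casp4 and Birc3, which were over 3 times as large within slide 3 as within slide 2. With the slide as a fixed block 6 of the 12 remained called, Casp12, Mcl1, both Bcl2l11 probes, Apaf1 and Trp53, and with the slide as a random block all 12 did.

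**Figure D4:**
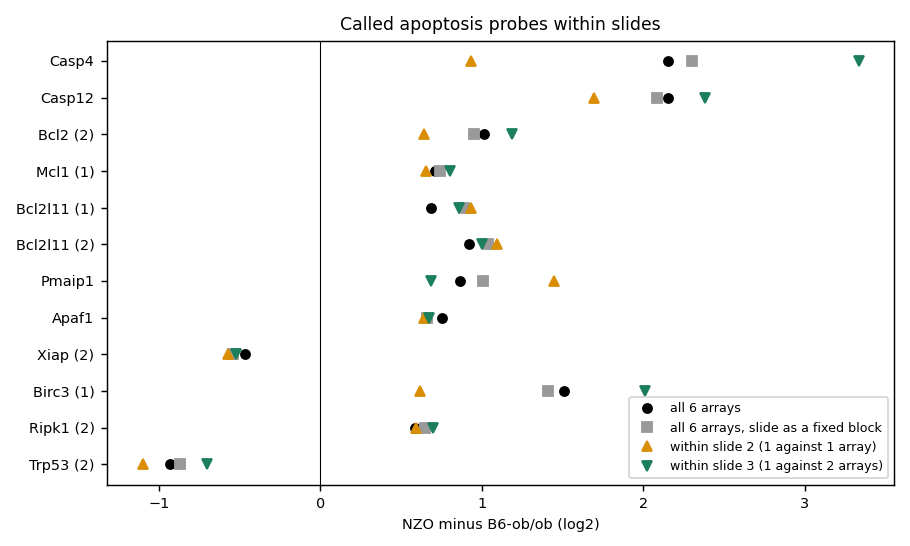
Log2 difference, NZO minus B6-ob/ob, of the 12 called probes over all 6 arrays (circles), with the slide as a fixed block (squares), within slide 2 (1 array against 1, upward triangles) and within slide 3 (1 against 2, downward triangles). No point crosses 0, and Casp4 and Birc3 show the widest spread between slides.

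Markers of other pancreatic cells also differed between the strains. Of 21 acinar genes 19 were higher in NZO, as were 6 of 12 ductal, 14 of 16 stellate and fibroblast, 7 of 15 macrophage and myeloid, 8 of 9 lymphocyte and 4 of 15 endothelial genes, each gene read at its brightest tested probe. Over all tested probes, 11.5% were higher and 10.3% lower in NZO. Only 3 of 10 tested lymphocyte, 11 of 17 ductal and 18 of 23 stellate and fibroblast probes were above background on all 6 arrays. The filter can admit a probe through the NZO arrays alone, so those counts may lean towards higher in NZO. Of 19 beta cell genes 3 were lower at their brightest probe. Over all 25 tested beta cell probes 6, in 6 genes, were lower, and none was higher even at an unadjusted p under 0.05 by limma. The summed linear signal of the acinar genes, in units of the array's 75th percentile, was 2518 to 3642 on NZO and 340.1 to 1080 on B6-ob/ob arrays. The corresponding ranges were 347.1 to 489 and 222.2 to 483.3 for ductal, 89.37 to 98.26 and 23.64 to 42.08 for stellate and fibroblast, and 23.66 to 42.69 and 13.64 to 18.14 for macrophage and myeloid genes. They were 1.141 to 1.183 and 0.4883 to 0.6741 for lymphocyte, 125.4 to 156.4 and 119.4 to 131.6 for endothelial, and 3842 to 4460 and 3823 to 4643 for beta cell genes. Among others, the lymphocyte markers Cd3d, Cd3g, Cd4, Cd8a, Cd79a, Ms4a1 and Gzma and the myeloid markers Itgam and Ccr2 were not above background on enough arrays to be tested. The mean log2 level of the acinar genes was 4.22, 3.44 and 2.70 on B6-ob/ob 4, 5 and 6 and 5.69, 5.91 and 6.21 on NZO 10, 11 and 12. That of the stellate and fibroblast genes was -0.04, -0.85 and -1.28 on B6-ob/ob and 1.68, 1.56 and 1.72 on NZO arrays, and that of the macrophage and myeloid genes was -1.83, -1.67 and -1.47 on B6-ob/ob and -0.52, -0.48 and -0.93 on NZO arrays. Within B6-ob/ob the acinar, stellate, ductal and endothelial lists had the array order of Casp4, and the macrophage and beta cell lists the opposite order. Within NZO the macrophage, ductal and lymphocyte lists had the order of Casp4, and the acinar, stellate, endothelial and beta cell lists did not. The ductal list had it in both strains, though its summed signal overlapped between the strains, as the Casp4 levels did not. Its mean log2 levels were 0.25, -0.39 and -0.97 on B6-ob/ob 4, 5 and 6 and 1.19, 1.52 and 1.07 on NZO 10, 11 and 12. An order of 3 arrays is easily matched when several lists are read, and no order was tested. In whole islets more cells of a type and more RNA per cell cannot be told apart, and the part of these cells in the values of the apoptosis genes was not tested.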

How the data were processed

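The arrays read 1 colour, Cy3, per the labels. The deposited scanner files hold linear intensity values per spot, already background-subtracted and detrended by the scanner software. Per the file headers this was Feature Extraction 10.5.1.1, against 9.1 in the submitters' processing notes. Other deposited columns flag spots. Control spots were left out and 61 to 76 flagged spots per array were set missing. Values were taken as log2, averaged per probe and lowered by the array's 75th percentile over 41174 probes. Probes above background on at least 3 of 6 arrays were tested probe by probe in R 4.3.3 with limma 3.58.1 (lmFit, eBayes, two-sided, no covariate), which was first tested on simulated data. The deposited value table (intensity, scale linear, not centred, direction unsettled, column medians 21.3, 21.4 and 21.45 for NZO and 22.1, 21.4 and 22.4 for B6-ob/ob) served as an alternative. Its rows for an accession with several probes do not follow 1 probe, so single probes were compared only where the accession has 1. Probe positions (mm9) come from the files.

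The members and the lists were chosen with earlier results of these data known. The text names all members, and of each further list at most 5 called genes per direction that were above background on all 6 arrays and did not overlap, plus Cdkn1a and Mdm2. Some genes of these lists enter the counts but are not reported here. Names of the further lists came from a RefSeq table, by accession for 25097 probes, by symbol for 6333 and by synonym for 1640, and 8104 probes kept the name in the file. The 20 alternatives cover background, normalization, filter, gene summary, slide, prior, array weights, the value table and each array left out. Array weights used the gene-by-gene update, chosen after the other update did not converge, and the limit of the value table to accessions with 1 probe was also set after its values were seen. Sequence differences between the strains under the probes were not analysed here. Sequence from chromosome 18 (Pmaip1) is not shown.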

Additional observations from a re-analysis of the deposited data

How the results depend on the processing

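Each result was recomputed under 20 alternatives. Of the 12 called probes, 4 were called in every alternative run for them (Casp12, the first Mcl1 probe, Apaf1 and the second Bcl2l11 probe), and 15 probes not called passed in at least 1 alternative. For Mcl1 the brightest probe per gene was the second probe, which was not called there. No called probe of the 34 genes changed sign, while probes past the threshold in neither analysis were counted as unchanged even where their sign differed. The Sfn probe that was not called took the sign of its gene's other probes in the mean of probes per gene (1.19). The value table, compared without direction, called 8 of its 42 rows for probes of these genes and 4051 of 18309 rows in all. These counts include rows for accessions with several probes, which do not follow 1 probe, so they are not counts of single probes. No paired analysis by replicate number was possible because the strains share none, and the slide served as the block.

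The counts were 10 higher, 2 lower and 12 called for the 34 genes, 10 higher and 7 lower for the other pathway genes, 9 and 2 for the p53 targets, 4 and 2 for the inflammasome genes, and 2840 and 2536 for all probes (5376 called). In that order they became, where they moved by over 1.5 times, 19, 7 and 26, then 17 and 16, 16 and 6, 8 higher, and 4890, 5504 and 10394 with array weights. With the slide as a fixed block they became 5, 1 and 6 for the 34 genes, 1 lower for the p53 targets and 1584 lower for all probes. The mean of probes per gene gave 0 lower by limma (3 at an unadjusted p under 0.05) and 7 called for the 34 genes, 6 higher for the other pathway genes, 1 lower for the p53 targets, 1 lower for the inflammasome genes and 1645 lower in all, where fewer features are tested. The brightest probe per gene gave 1 lower for the 34 genes, 0 lower by limma for the other pathway genes (3 at an unadjusted p under 0.05), 5 and 1 for the p53 targets, 1 lower for the inflammasome genes and 1478 lower in all. Normexp background with the 75th percentile gave 1 lower for the 34 genes and 3 lower for the other pathway genes. The percentile over probes above background on all arrays and the trend and robust prior each gave 1 lower for the 34 genes. Without a filter on dim probes 4 of the other pathway genes were lower and 5 p53 targets higher.

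Leaving out 1 array at a time gave 4 to 12 higher, 1 to 2 lower and 5 to 13 called for the 34 genes. It gave 4 to 10 higher and 3 to 7 lower for the other pathway genes, 3 to 8 and 1 to 4 for the p53 targets, 2 to 6 and 2 to 2 for the inflammasome genes, and 1664 to 2869 and 1150 to 2483 for all probes (2814 to 5102 called). The cause of these shifts was not tested, although fewer arrays also mean fewer degrees of freedom. Nearness to background limits what can be said of Hrk and of the probes above background on fewer than 6 arrays.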

Other observations

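Several members gave unlike values at probes of the same gene, and the differences between probes were not tested. The log2 differences of Trp53 were -0.03 and -0.93, those of Bcl2 0.03, 1.02 and 0.25, and those of Ripk1 0.26, 0.59 and 0.03. Those of Fas were -0.44 and 0.46. The 2 Bad probes lie on opposite strands of chromosome 19 in the files, the first at chr19:7016618-7016677 and the second, from a cDNA clone, at chr19:7025594-7025653 on mm9. Of the 64 probes, the Bid probe alone shares stretches of 16 bases with the promoter windows of more than 3 other genes, namely 42.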
